A study of Arabidopsis thaliana with 12 samples.

Results

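The genotype difference that slim1-1 seedlings of Arabidopsis thaliana showed in the same direction under arsenite and under cadmium is described here. RNA of whole seedlings aged 14 days was hybridised to single-colour Affymetrix arrays in 4 groups of 3 biological replicates. The groups were slim1-1 on 20 µM As(III), Col-0 wild type on 20 µM As(III), slim1-1 on 100 µM Cd and Col-0 wild type on 100 µM Cd, all grown on minimal medium. Every group was exposed to a metal, and unexposed seedlings were not analysed here. The mutant is represented by 1 allele. The protocol text gives 12 days without metal and 48 h of arsenite for every sample and does not name cadmium, so the length of the cadmium exposure is not known from the sources used here. All 12 arrays of the series entered the comparison. For each of 13356 genes the difference slim1-1 minus wild type was taken within each metal, and the mean of both differences with equal weight is called the average difference. Its sign was the same under both metals in 7346 of the 13356 genes (55.0%). A gene is called where its Benjamini-Hochberg adjusted p was under 0.05 over all genes, and a call of the average difference with the same sign under both metals is named a shared call. There were 962 shared calls.

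SLIM1 (EIL3) belongs to the EIN3-like transcription factors and controls how the plant responds to low sulfur. On low sulfate it promotes sulfate uptake and sulfur recycling and restrains glucosinolate synthesis, which frees sulfur for primary metabolism. Arsenite and cadmium both bind thiols, and plants detoxify them with glutathione and with phytochelatins, which are built from assimilated sulfur.

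The arsenite arrays and the cadmium arrays did not share 1 distribution of values. Their medians over all probe sets were 6.85 to 6.94 and 5.58 to 5.64 on the log2 scale, so levels are set side by side only within a metal. A step common to a metal cancels in each genotype difference, but a step between genotypes within a metal does not. Over the tested genes, every slim1-1 array had a higher median than every wild-type array of its metal. Medians were 6.45 to 6.48 in slim1-1 and 6.39 to 6.43 in wild type under arsenite. Under cadmium they were 5.10 to 5.12 in slim1-1 and 5.06 to 5.07 in wild type. The cause of this step was not tested. The correlation r between replicates, taken across genes, was 0.992 to 0.997, and the median standard error of the average difference was 0.0646. Each of 4 control values was compared between genotypes with an exact permutation test of arrays within each metal (two-sided, 400 arrangements, smallest possible exact p = 0.005). The 25S rRNA control was lower in slim1-1 (-0.53 on average, exact p = 0.045), as was the 3' minus 5' value of GAPDH (-0.11, p = 0.04). The 3' minus 5' value was 0.0626 for ubiquitin (exact p = 0.05) and 0.0691 for actin (exact p = 0.485), and none of the 4 passed after adjustment (adjusted p 0.0667 to 0.485). The part of these controls in the gene results was not tested. SLIM1 itself has no row in the probe table used here, so the genotype labels were not checked against the mutated gene. In RNA of whole seedlings, fewer cells of a type and less RNA per cell cannot be told apart.

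The average difference was called for 1085 genes, or 8.12% of the genes tested. Of these, 962 were shared calls (7.20% of all genes), 534 higher in slim1-1 (4.0%) and 428 lower (3.20%), while 123 called genes had opposite signs under arsenite and cadmium. An average favours genes whose differences point the same way, so the share of same signs among its calls is a description. When all arrays were shifted to a common median, the split was 291 higher and 924 lower of 1215 shared calls, and after quantile normalization over all arrays it was 430 higher and 432 lower of 862. The shift moved the median average difference by 0.0502. Most shared calls were small: the median absolute average difference was 0.30, 100 genes reached 1.5-fold and 18 reached 2-fold. Of those 18, 12 were higher in slim1-1.

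The same sign did not mean a difference of like size under both metals. Of the 962 shared calls, 675 (70.2%) also passed under cadmium alone, 59 (6.13%) under arsenite alone and 30 (3.12%) under each metal. The other 198 (20.6%) passed under neither metal when it was tested on its own. The difference was larger under cadmium in 730 shared calls and larger under arsenite in 232, and the smaller difference was at least 0.5 of the larger in 381. Differences were wider under cadmium over all genes too, with quartiles of -0.124 and 0.104, against -0.075 and 0.088 under arsenite. The share of all genes with the larger difference under cadmium was not taken. The interaction, which tests whether the genotype difference itself differed between metals, was called for 116 shared calls (4.30% of all genes had a called interaction). Of the 116, 106 were larger under cadmium and 10 larger under arsenite. Among shared calls higher in slim1-1 the median difference was 0.18 under arsenite and 0.38 under cadmium, and among those lower it was -0.22 under arsenite and -0.38 under cadmium. The slim1-1 arrays lay apart from the wild-type arrays in the same direction under both metals in 417 shared calls (43.3%), against 4.35% of all genes. Shared calls were chosen by p and sign on these same arrays, which favours arrays that lie apart, so this share is a description.

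**Figure D1:**
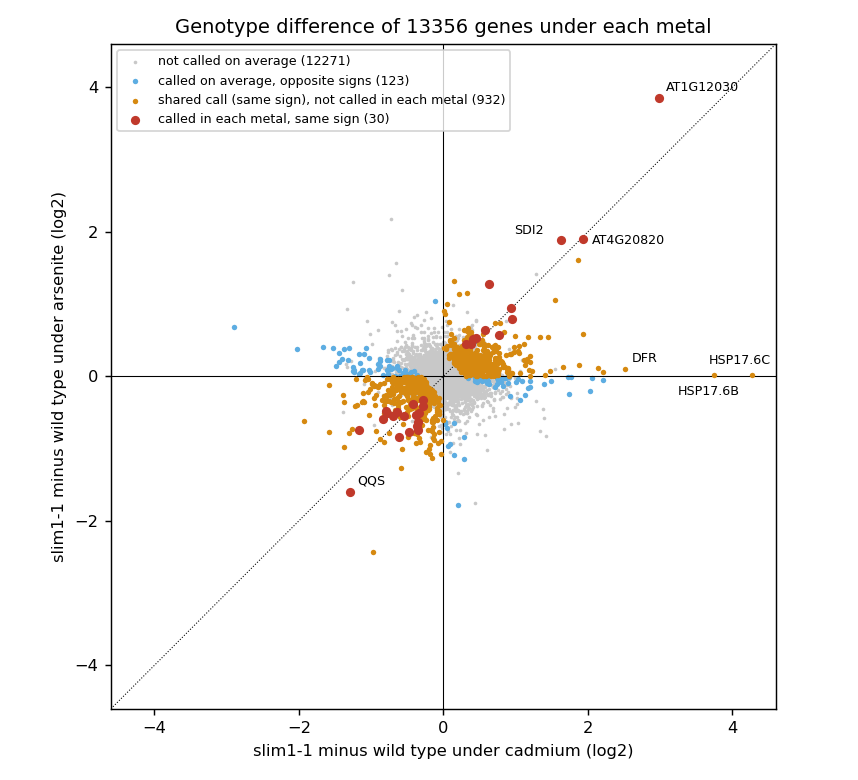
Genotype difference of each gene (slim1-1 minus wild type, log2) under cadmium on the x axis and under arsenite on the y axis, for 13356 genes. Points on the dotted line differ by the same amount under both metals. AT1G12030, AT4G20820, SDI2 and QQS lie near that line, whereas HSP17.6C, HSP17.6B and DFR lie on the cadmium axis.

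The largest shared difference was that of AT1G12030, for which the tables used here give no symbol. Its level under arsenite was 9.21, 7.75 and 7.62 on the 3 slim1-1 arrays, against 4.34, 4.38 and 4.29 on the wild-type arrays. Under cadmium it was 10.41, 10.03 and 9.41 on slim1-1 arrays, against 6.81, 7.10 and 7.0 on wild-type arrays. The genotypes did not overlap under either metal, and the lowest slim1-1 array stood more than 2 log2 units above the highest wild-type array in each. On average slim1-1 was 3.42 ± 0.24 log2 units higher (moderated SE of the limma fit, with 6 arrays of each genotype), or 10.7-fold (adjusted p = 1.23e-05). It was 3.86 under arsenite and 2.98 under cadmium, and the interaction did not pass (adjusted p = 0.367). The wild-type mean under arsenite (4.34) was under the lower quartile of all probe sets on its arrays (4.59), so that fold is not exact.

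AT4G20820, an oxidase gene of the berberine bridge enzyme-like family, moved by almost the same amount under both metals. Arsenite levels were 7.25, 6.94 and 6.68 in slim1-1, against 4.90, 5.03 and 5.22 in wild type. Cadmium levels were 6.17, 5.76 and 5.40 in slim1-1, against 3.69, 3.86 and 3.99 in wild type. Here too the genotypes did not overlap. Its average difference was 1.92 ± 0.13, or 3.78-fold higher in slim1-1 (adjusted p = 1.19e-05), and it was 1.91 under arsenite and 1.93 under cadmium.

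SDI2 (AT1G04770), a gene of the SULFUR DEFICIENCY INDUCED pair whose products lower glucosinolate synthesis when sulfur is short, was the third in size among the genes called under each metal. It measured 10.17, 9.90 and 9.74 in slim1-1 under arsenite, against 7.77, 8.23 and 8.12 in wild type. Under cadmium it measured 9.12, 9.26 and 8.78 in slim1-1, against 7.38, 7.64 and 7.26 in wild type. Every slim1-1 array was more than 1 log2 unit above every wild-type array of its metal. The average difference was 1.76 ± 0.11, or 3.39-fold higher in slim1-1 (adjusted p = 1.19e-05), and the interaction did not pass (adjusted p = 0.59).

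QQS, a gene found only in Arabidopsis thaliana whose product affects the balance of starch and protein, had the largest fall among the genes called under each metal. Its arsenite levels were 8.15, 6.98 and 7.93 in slim1-1, against 9.47, 9.13 and 9.24 in wild type. Its cadmium levels were 6.51, 6.44 and 7.12 in slim1-1, against 8.08, 8.04 and 7.81 in wild type. All slim1-1 arrays were below all wild-type arrays of their metal, although slim1-1 arrays spread over more than 1 log2 unit under arsenite. The average difference was -1.44 ± 0.18, or 2.72-fold lower in slim1-1 (adjusted p = 0.000684).

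**Figure D2:**
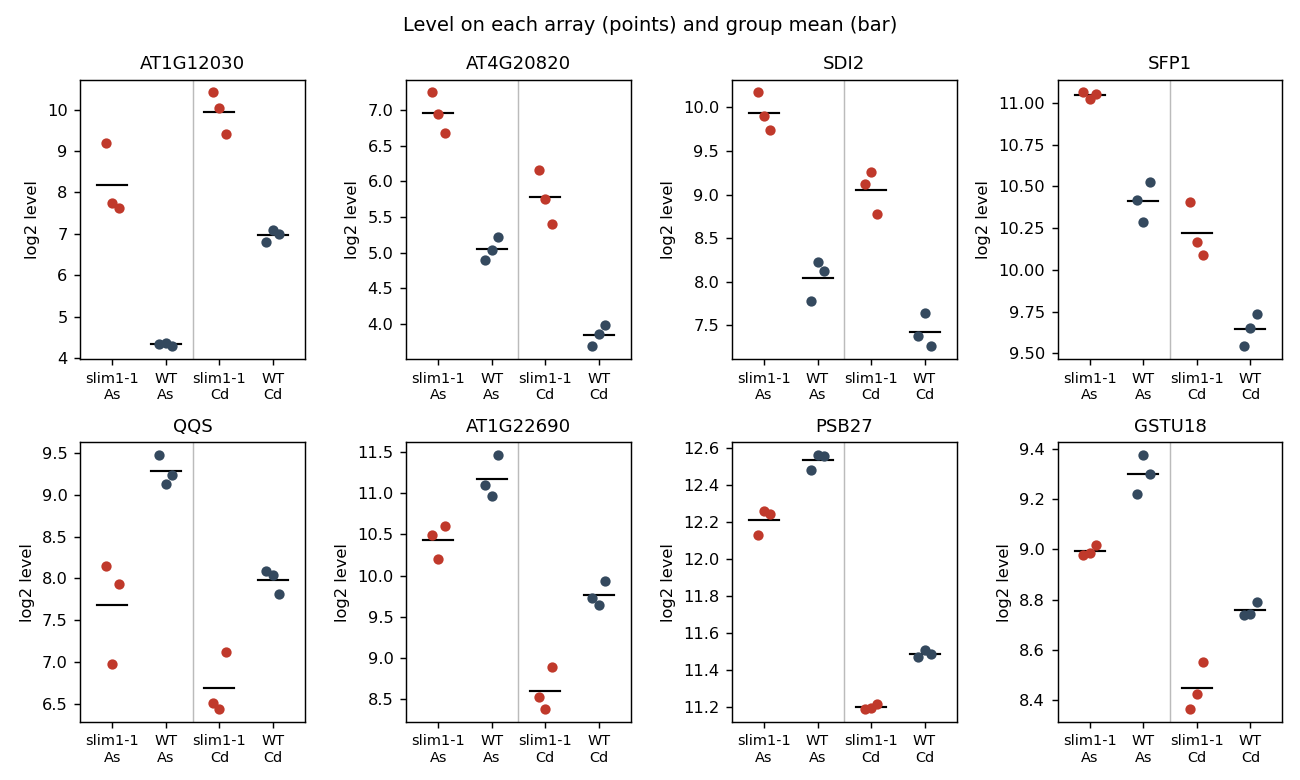
Level (log2) on each array for 8 genes, with slim1-1 in red to the left of wild type in dark blue for arsenite (As) and then cadmium (Cd); points are arrays and bars are the means of 3. In all 8 genes the genotypes do not overlap under either metal, and levels are comparable only within a metal.

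In the contrasts of the fit to all 12 arrays, 30 genes passed under each metal in the same direction (0.225% of the genes tested). There 140 genes (1.05%) passed under arsenite and 1646 (12.3%) under cadmium. Of the 30, 12 were higher in slim1-1 (0.0898% of all genes) and 18 lower (0.135%). None of the 30 had a called interaction. They were chosen for passing under both metals, so this does not show that their differences were equal. All 30 stayed shared calls of the average when any 1 array was left out, with the replicate number as a block and in the additive model, but fewer of them stayed called under each metal. With 1 array left out, 14 to 24 of the 30 did. The whole count of genes called under each metal was 15 without wild-type replicate 2 under arsenite or without wild-type replicate 1 under cadmium, 18 without slim1-1 or wild-type replicate 2 under cadmium, 19 without slim1-1 replicate 2 under arsenite, and 47 without slim1-1 replicate 1 under arsenite. When each metal was fitted alone, with 2 groups to estimate the spread, 8 of the 30 passed under both metals. These 8 were AT1G12030, AT4G20820, SDI2, AT3G56200, AT3G19000, SFP1, AT5G19110 and AT3G44630.

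Among the 12 genes higher in slim1-1 under each metal, 2 have a symbol in the tables used here, SDI2 and SFP1 (AT5G27350), a member of the sugar porter family. SFP1 measured 11.06, 11.02 and 11.05 in slim1-1 under arsenite, against 10.42, 10.29 and 10.52 in wild type. Its cadmium levels were 10.41, 10.16 and 10.09 in slim1-1, against 9.54, 9.65 and 9.74 in wild type. The 3 slim1-1 arrays under arsenite were within 0.05 log2 units of each other and clear of wild type, and the average difference was 0.61 ± 0.06 (adjusted p = 0.000251). The other genes have locus names only. AT1G52100 was 0.96 ± 0.13 higher, with 1.27 under arsenite and 0.64 under cadmium, and AT3G56200 was 0.94 ± 0.11 higher, with 0.95 and 0.93 in the same order.

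AT3G19000 was also precise, with a standard error of 0.06. It measured 9.39, 9.36 and 9.61 in slim1-1 under arsenite, against 8.59, 8.73 and 8.67 in wild type. Under cadmium it measured 8.17, 8.29 and 8.06 in slim1-1, against 7.08, 7.26 and 7.31 in wild type. It was 0.87 ± 0.06 higher on average (adjusted p = 1.57e-05), with no overlap of arrays. AT3G45210 was 0.67 ± 0.06 higher, and AT4G27900, AT4G01390, AT4G33960 and AT5G02050 lay between 0.38 and 0.49.

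Among the 18 genes lower in slim1-1 under each metal, QQS and PSB27 have a symbol. PSB27, a small lumenal protein that acts in the assembly and repair of photosystem II, was bright and differed little but evenly. Its arsenite levels were 12.13, 12.26 and 12.25 in slim1-1, against 12.48, 12.56 and 12.56 in wild type. Its cadmium levels were 11.19, 11.20 and 11.22 in slim1-1, against 11.47, 11.51 and 11.49 in wild type. The difference of -0.30 ± 0.04 (adjusted p = 0.00138) was the smallest in size of the 30, and replicates within a group lay within 0.13 log2 units of each other. AT1G22690 followed QQS in size at -0.96 ± 0.11, with levels of 10.49, 10.20 and 10.60 in slim1-1 under arsenite, against 11.10, 10.97 and 11.46 in wild type. Under cadmium AT1G22690 had 8.53, 8.38 and 8.89 in slim1-1, against 9.73, 9.64 and 9.94 in wild type.

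The remaining 15 genes lower under each metal have locus names only, and their average differences lay between -0.73 (AT5G19110) and -0.35 (AT2G21120). AT2G43550 was -0.71 ± 0.08, AT3G59350 -0.65 ± 0.07 and AT2G32150 -0.64 ± 0.05. AT4G33666 and AT1G75190 were both at -0.62, and AT5G13100 was at -0.56. AT1G66760, AT1G03440 and AT1G61260 lay between -0.54 and -0.52, with AT1G66760 at -0.55 under arsenite and -0.54 under cadmium. AT3G44630, AT1G72790, AT5G58720 and AT4G28025 lay between -0.49 and -0.40. Among these 15 the differences were least even in AT1G03440, at -0.74 under arsenite and -0.35 under cadmium.

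**Figure D3:**
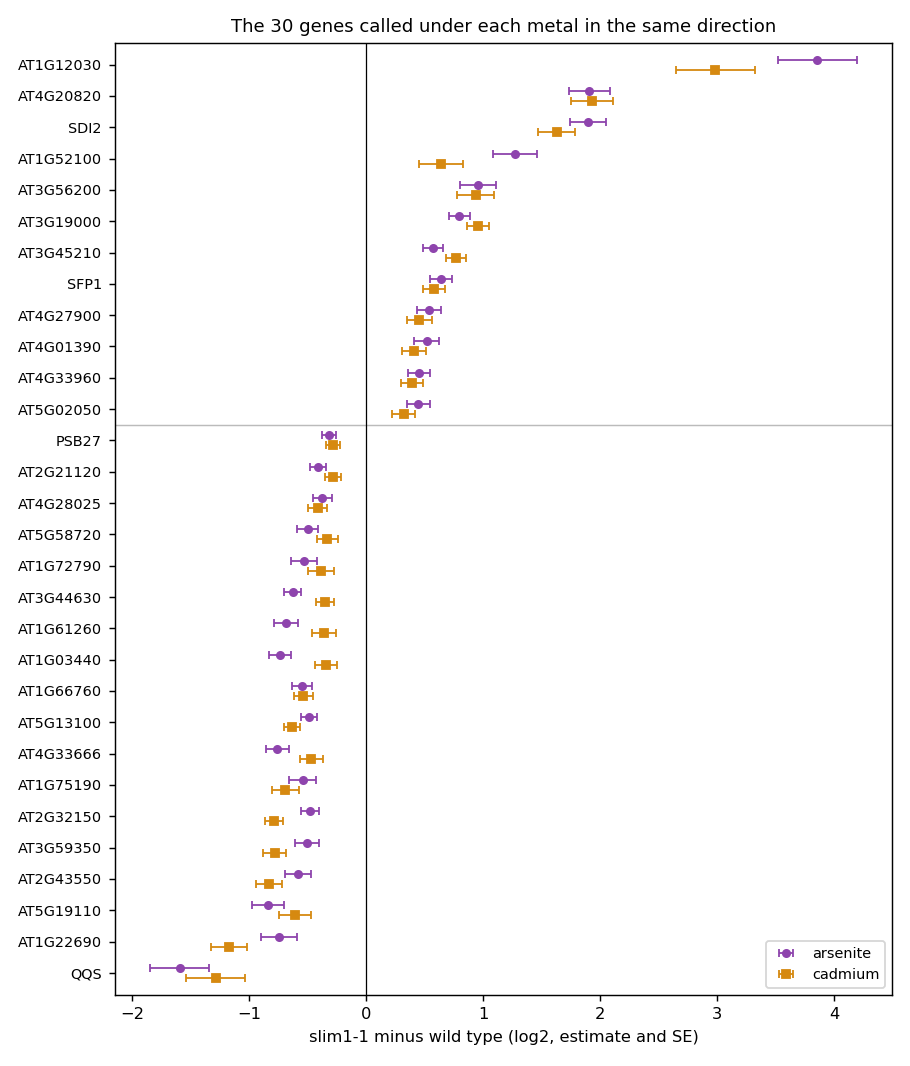
Genotype difference (slim1-1 minus wild type, log2, with its SE) under arsenite (circles) and cadmium (squares) for the 30 genes called under each metal. The 12 genes above the grey line were higher in slim1-1 and the 18 below it lower, from 3.42 on average for AT1G12030 to -1.44 for QQS.

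Of the 18 shared calls of at least 2-fold on average, several passed under cadmium alone while arrays lay apart under both metals. AT3G44970 was 1.3 ± 0.19 higher in slim1-1 (1.05 under arsenite, 1.55 under cadmium, adjusted p = 0.00154). AT3G51450, AT1G70880, AT1G15010 and AT5G05600 were lower by an average of -1.17, -1.18, -1.27 and -1.05, with arsenite differences of -0.97, -0.77, -0.62 and -0.79 that did not pass on their own (adjusted p 0.0572 to 0.155). AT4G33720 had the largest average difference among shared calls lower in slim1-1 (-1.70 ± 0.45, adjusted p = 0.0375), but its arrays varied widely. Its arsenite levels were 7.57, 7.05 and 5.67 in slim1-1, against 9.82, 10.14 and 7.60 in wild type. Its cadmium levels were 7.67, 7.58 and 9.24 in slim1-1, against 9.42, 9.06 and 8.95 in wild type, where the genotypes overlapped. The call was lost without any 1 of 9 arrays, that is all except slim1-1 replicate 1 and wild-type replicate 3 under arsenite and slim1-1 replicate 3 under cadmium. AT4G12500 (1.74 ± 0.44, adjusted p = 0.0313) lost its call without wild-type replicate 2 or 3 under arsenite, or without slim1-1 replicate 1 or 2 or wild-type replicate 1 or 3 under cadmium.

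The sulfur starvation list (10 genes that rise when sulfate is short, 2 measured) had 1 shared call, SDI2, and 1 gene with opposite signs. BGLU28, a beta-glucosidase that breaks down glucosinolates on low sulfur, measured 5.28, 5.60 and 4.71 in slim1-1 under arsenite, against 4.48, 4.56 and 4.52 in wild type. Under cadmium it measured 6.23, 5.83 and 6.88 in slim1-1, against 8.86, 9.39 and 9.39 in wild type. Its difference was thus 0.68 under arsenite, which did not pass (adjusted p = 0.268), and -2.90 under cadmium (adjusted p = 2.88e-05), so SDI2 and BGLU28 did not move together. Its wild-type mean under arsenite was under the lower quartile of its arrays.

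Of 20 listed genes of sulfate assimilation and cysteine synthesis, 3 were measured and 1 was a shared call. SIR, the sulfite reductase that makes sulfide, was -0.27 ± 0.06 lower in slim1-1 (adjusted p = 0.0202), with -0.16 under arsenite and -0.39 under cadmium. Its arsenite arrays overlapped (10.21, 10.50 and 10.49 in slim1-1, against 10.49, 10.70 and 10.48 in wild type). Its cadmium arrays did not overlap (8.25, 8.25 and 8.13 in slim1-1, against 8.58, 8.60 and 8.60 in wild type). The SIR call was lost without wild-type replicate 2 under arsenite. The ATP sulfurylase genes APS3 and APS4, whose products activate sulfate, had opposite signs under the metals. APS3 was at 0.14 under arsenite and -0.73 under cadmium, and APS4 at -0.62 and 0.19 in the same order, and neither passed on average (adjusted p = 0.109 and 0.108). None of the 12 listed sulfate transport genes was measured.

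Neither measured gene of the glutathione and phytochelatin list (2 of 12) passed on average: the glutathione reductase genes GR1 and GR were at 0.18 ± 0.09 and -0.18 ± 0.08 (adjusted p = 0.244 and 0.193). None of the 4 measured of 28 glucosinolate genes passed either. BCAT4, which opens the chain elongation of methionine in aliphatic glucosinolate synthesis, came nearest at -0.53 ± 0.15 (adjusted p = 0.0563). The glucosyltransferase genes UGT74B1 and UGT74C1 and the glutathione transferase gene GSTU20 were at -0.15, -0.13 and 0.14. Outside the lists, 3 shared calls encode enzymes of methionine metabolism or repair, and these were picked after their values were seen. HMT-1, a homocysteine methyltransferase, was 0.43 ± 0.06 higher in slim1-1 (0.22 under arsenite, 0.63 under cadmium). MSRB9, a methionine sulfoxide reductase, was -0.51 ± 0.11 lower, with -0.39 and -0.63 in the same order. MGL, the methionine gamma-lyase, was -0.35 ± 0.08 lower, almost all of it under cadmium (-0.05 under arsenite, -0.66 under cadmium), and its call was lost without slim1-1 replicate 1 or wild-type replicate 3 under arsenite.

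CC-type glutaredoxins are small plant-specific thiol proteins, several of which act with TGA transcription factors in nitrate, defence and flower development. Of 19 listed genes 15 were measured. Of these, 5 were shared calls, all lower in slim1-1 (3.20% of all genes were), 2 were called with opposite signs and 8 did not pass. The 5 lower calls became 3 without slim1-1 replicate 2 or wild-type replicate 1 under arsenite or without slim1-1 replicate 1 or 2 under cadmium. They became 2 in the additive model, which fits 1 genotype difference for both metals. They became 7 after the shift to a common median, with array weights or without slim1-1 replicate 3 under arsenite. There was also 1 shared call higher in slim1-1 without slim1-1 replicate 2 under arsenite or without wild-type replicate 3 under cadmium. The median average difference of the 15 was -0.30, against -0.0043 over all genes, and it was -0.54 under arsenite and -0.11 under cadmium. The list was put together with earlier results of these arrays known, and no test of it as a group was made.

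GRXS2 and GRXS9 were the members of this family whose arrays lay apart under both metals. GRXS2 measured 9.51, 9.39 and 9.67 in slim1-1 under arsenite, against 9.99, 10.12 and 10.07 in wild type, and 7.45, 7.43 and 8.21 in slim1-1 under cadmium, against 8.33, 8.39 and 8.77 in wild type. On average GRXS2 was at -0.67 ± 0.13 (adjusted p = 0.00743). GRXS9 measured 5.92, 5.30 and 5.63 in slim1-1 under arsenite, against 6.28, 6.19 and 6.02 in wild type, and 5.03, 5.30 and 5.25 in slim1-1 under cadmium, against 5.51, 5.90 and 5.63 in wild type. Its difference was nearly even, at -0.55 under arsenite and -0.48 under cadmium (average -0.52 ± 0.10, adjusted p = 0.0101). Both calls held without any 1 array.

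The other 3 shared calls of the family had the larger value under arsenite, but none had a called interaction (adjusted p 0.0908 to 0.541). GRXS3 was at -0.91 under arsenite and -0.32 under cadmium, GRXS5 at -0.80 and -0.13, and GRX480 at -0.75 and -0.37 in the same order. Cadmium levels of GRXS3 and GRXS5 were below the lower quartile of their arrays in both genotypes, so their cadmium differences are not shown to be above background. The GRXS3 call was lost without slim1-1 replicate 1 or 2 or wild-type replicate 1 under arsenite, or slim1-1 replicate 1 or 2 or wild-type replicate 3 under cadmium. The GRX480 call was lost without slim1-1 replicate 2 or wild-type replicate 1 or 2 under arsenite, or slim1-1 or wild-type replicate 1 or 2 under cadmium. GRXS1 ran against the family under arsenite, at 1.05 there and -0.11 under cadmium, and GRXS8 was at -1.08 and 0.14 in the same order. GRXS3, GRXS4, GRXS5 and GRXS8 are close paralogs, and how far their probe sets cross-hybridise is not known from the sources used here.

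**Figure D4:**
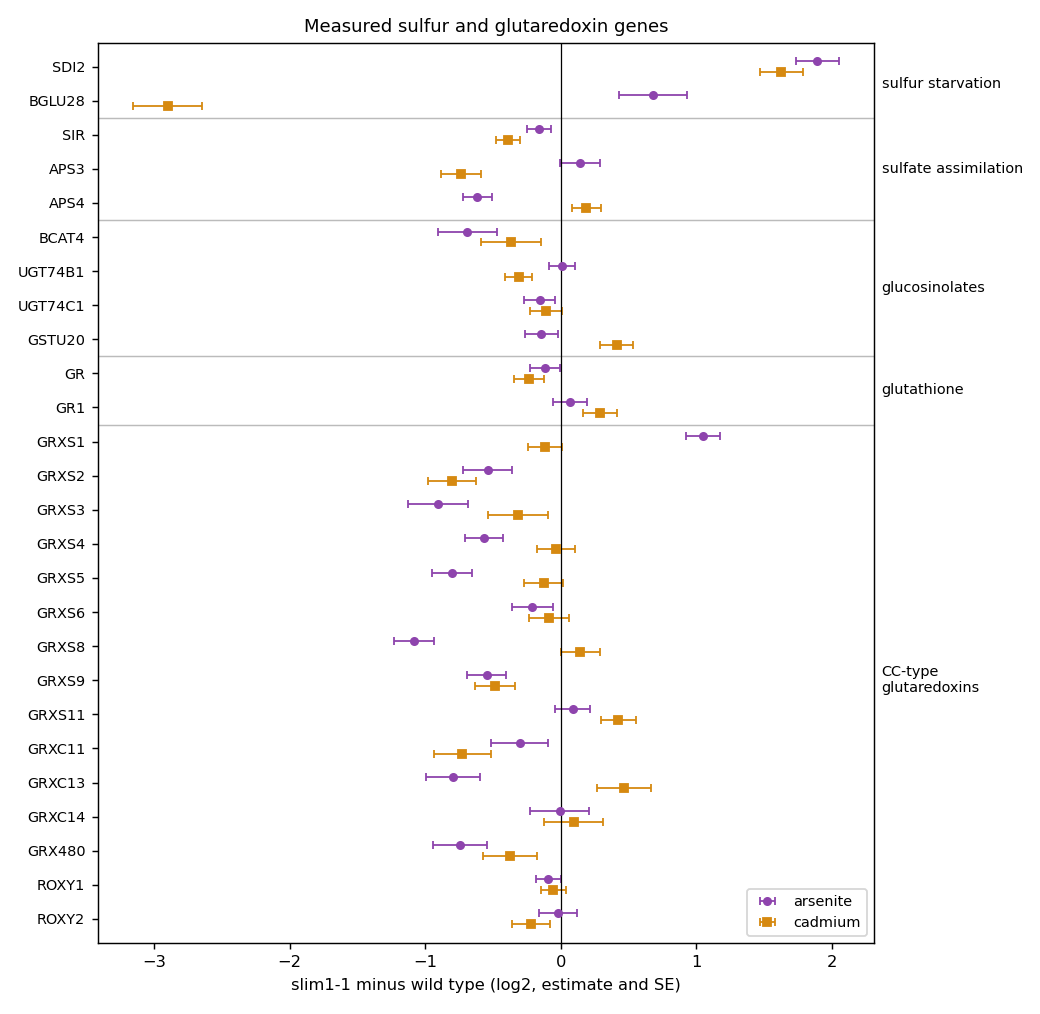
Genotype difference (slim1-1 minus wild type, log2, with its SE) under arsenite (circles) and cadmium (squares) for 11 measured genes of 4 sulfur lists and for 15 CC-type glutaredoxin genes. SDI2 is high under both metals, BGLU28 takes opposite signs, and GRXS2 and GRXS9 are lower under both.

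Of the 962 shared calls, 143 (14.9%) have a symbol, 87 higher and 56 lower in slim1-1. Over all tested genes 4.0% were shared calls higher and 3.20% lower, and these shares were not taken for genes with a symbol. The genes with a symbol named here had arrays apart under both metals unless stated, and were picked after their values were seen. GAMMA-VPE, a vacuolar processing protease, was 0.52 ± 0.07 higher (0.27 under arsenite, 0.77 under cadmium). SERPIN1, an inhibitor of cysteine proteases, measured 9.55, 9.59 and 9.48 in slim1-1 under arsenite, against 9.32, 9.30 and 9.23 in wild type, and 7.99, 7.95 and 7.99 in slim1-1 under cadmium, against 7.43, 7.60 and 7.46 in wild type. The SERPIN1 difference of 0.37 ± 0.05 had an adjusted p of 0.000696. The serine carboxypeptidase-like gene scpl35 was 0.42 ± 0.08 higher.

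Regulators and signalling genes were also among the higher shared calls. bZIP44, a basic leucine zipper factor, was 0.54 ± 0.07 higher (0.38 under arsenite, 0.70 under cadmium, adjusted p = 0.00109). MYC4, a bHLH factor of jasmonate signalling that promotes glucosinolate synthesis, was 0.27 ± 0.05 higher (0.20 and 0.34 in the same order, adjusted p = 0.0111). CLE21, which encodes a small signalling peptide, was 0.57 ± 0.10 higher (0.59 and 0.54), and WAG2, a kinase that acts on auxin transport, was 0.48 ± 0.09 higher (0.56 and 0.40). The wild-type arsenite means of CLE21 and WAG2 were under the lower quartile of their arrays. WAG2 passed under neither metal alone (adjusted p = 0.0592 under arsenite and 0.0598 under cadmium) and passed on average (adjusted p = 0.00734).

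Enzymes and lectins made up the remaining named rises. The jacalin-related lectin gene JAL22 was 0.44 ± 0.08 higher (0.55 under arsenite, 0.33 under cadmium). UGT78D1, a flavonol rhamnosyltransferase, was 0.35 ± 0.07 higher (0.29 and 0.42), and CHIL, a chalcone isomerase-like protein that aids flavonoid synthesis, was 0.73 ± 0.14 higher (0.61 and 0.84) with arsenite arrays that overlapped. AIM1, a peroxisomal enzyme of fatty acid beta-oxidation, was 0.35 ± 0.05 higher (0.17 and 0.53). ETFALPHA, a subunit of the mitochondrial electron transfer flavoprotein, was at 0.22 under arsenite and 0.23 under cadmium (average 0.22 ± 0.05, adjusted p = 0.0129).

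GSTU18, a tau-class glutathione transferase, had the same lower value under both metals. It measured 8.98, 8.99 and 9.02 in slim1-1 under arsenite, against 9.22, 9.38 and 9.30 in wild type. It measured 8.36, 8.42 and 8.55 in slim1-1 under cadmium, against 8.74, 8.74 and 8.79 in wild type. The difference was -0.31 under each metal (average -0.31 ± 0.05, adjusted p = 0.00271), the genotypes did not overlap, and it passed alone under cadmium and not under arsenite (adjusted p = 0.0114 and 0.0556). It was not typical of its family. Of 12 measured genes named as glutathione S-transferases, GSTU18 alone kept 1 sign under both metals, and the other 11 were not called on average. The median of the 12 was -0.17 under arsenite and 0.14 under cadmium. IQD22, a calmodulin-binding protein of the IQD family, was -0.53 ± 0.08 lower (-0.36 under arsenite, -0.69 under cadmium). JRG21, a jasmonate-regulated gene by its name, was -0.65 ± 0.13 lower (-0.51 and -0.78), with a slim1-1 arsenite mean below the lower quartile.

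STOMAGEN, a peptide of the leaf mesophyll that raises stomatal density, was -0.47 ± 0.06 lower (-0.24 under arsenite, where arrays overlapped, and -0.69 under cadmium). Of 9 listed guard cell genes 3 were measured. FMA, which ends the division of guard mother cells, was -0.37 ± 0.09 lower (adjusted p = 0.0221), with arsenite arrays that overlapped, a call lost without slim1-1 replicate 2 or wild-type replicate 1 under arsenite, or slim1-1 or wild-type replicate 2 under cadmium. SPCH, which starts the lineage, and MUTE were at 0.12 and 0.03 and did not pass (adjusted p = 0.677 and 0.866), and MUTE was below the lower quartile in every group. The mean log2 level of the 3 genes ranged from 5.11 to 5.44 in slim1-1 and from 5.16 to 5.40 in wild type under arsenite. Under cadmium it ranged from 4.06 to 4.18 in slim1-1 and from 3.94 to 4.29 in wild type. The ranges overlapped under both metals.

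Some shared calls rested on cadmium with almost no difference under arsenite. Heat shock proteins keep other proteins from aggregating, and 4 of the 6 measured of 20 listed genes were shared calls, all higher in slim1-1 (4.0% of all genes were), with a median average difference of 0.41 over the 6 (0.08 under arsenite, 0.64 under cadmium). The 4 became 2 after the shift to a common median or without slim1-1 replicate 2 or wild-type replicate 1 under arsenite, and 1 in the additive model. HSP17.6C measured 4.13, 4.14 and 4.73 in slim1-1 under arsenite, against 4.21, 4.46 and 4.26 in wild type, so the genotypes overlapped. Under cadmium it measured 6.95, 7.70 and 7.90 in slim1-1, against 3.22, 3.37 and 3.16 in wild type, far apart. Its average of 2.14 ± 0.15 joins 0.02 under arsenite and 4.27 under cadmium. Both arsenite means and the wild-type cadmium mean of HSP17.6C (3.25) were under the lower quartile of their arrays, so these sizes are not exact. HSP17.6B joins 0.02 under arsenite and 3.74 under cadmium. HSP17.6C and HSP17.6B both lost the shared call when arrays were shifted to a common median, where the arsenite sign turned. HSP17.6C also lost it without slim1-1 replicate 3 or wild-type replicate 1 or 3 under arsenite, and HSP17.6B without slim1-1 replicate 2 or wild-type replicate 1 under arsenite. The call of HSP17.6C was lost with array weights too, and that of HSP17.6B after quantile normalization within each metal.

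The other heat shock calls were smaller. HSP15.7 was at 0.14 under arsenite and 0.70 under cadmium (its call was lost without slim1-1 replicate 2 under arsenite). BOB1, a NudC-domain chaperone, was at 0.14 and 0.43 in the same order, with arrays apart under both metals. ATHSP22.0 and HSP23.5 were at 0.07 ± 0.07 and 0.39 ± 0.15 on average and did not pass (adjusted p = 0.579 and 0.119). Fes1A, a partner of HSP70 outside the list, was at 0.16 under arsenite and 1.88 under cadmium.

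Anthocyanins are the red and purple flavonoid pigments. Of 16 listed genes of their synthesis 5 were measured, 2 were shared calls higher in slim1-1 (4.0% of all genes were), 2 were called with opposite signs and 1 did not pass. Both shared calls were lost in the additive model (adjusted p = 0.0774 for DFR and 0.0775 for AT5MAT). DFR, the dihydroflavonol reductase, measured 4.25, 4.27 and 4.23 in slim1-1 under arsenite, against 4.16, 4.26 and 4.05 in wild type, all under the lower quartile of their arrays. Under cadmium it measured 10.31, 10.04 and 8.97 in slim1-1, against 7.04, 7.45 and 7.29 in wild type, where the genotypes were apart. AT5MAT, an anthocyanin malonyltransferase, was at 0.13 under arsenite and 1.65 under cadmium. The glycosyltransferase genes UF3GT and UGT75C1 were at -0.05 and -0.21 under arsenite and at 2.21 and 2.03 under cadmium, and UGT78D2 at 0.34 ± 0.10 on average did not pass (adjusted p = 0.0601).

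Further shared calls with a called interaction were found in both directions. BETA-VPE, a second vacuolar processing protease, was at 0.08 under arsenite and 1.48 under cadmium (its call was lost without wild-type replicate 1 under arsenite), HIS1-3, a drought-induced linker histone, at 0.54 and 1.44, and EXLB1, an expansin-like gene, at 0.23 and 1.11. Lower in slim1-1 were WRKY22, a factor of immune signalling (-0.21 and -1.04), ORA47, an AP2/ERF factor of the wound and jasmonate response (-0.23 and -1.11), BZIP34 (-0.11 and -0.65), BZIP61 (-0.11 and -0.65), AT1G02660 (-0.35 and -1.38) and AT1G15010 (-0.62 and -1.93). ORA47 and AT1G02660 kept arrays apart under arsenite also, whereas those of WRKY22, BZIP34 and BZIP61 overlapped there.

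In a few named shared calls the larger difference was that under arsenite. IMA1, a peptide that promotes iron uptake, was at 1.32 under arsenite and 0.15 under cadmium (average 0.74 ± 0.19, adjusted p = 0.035), and its interaction did not pass (adjusted p = 0.119). It was the 1 shared call among 4 measured of 23 iron deficiency genes, where BHLH101 was at 1.2 and -0.58 in the same order and did not pass on average (adjusted p = 0.499). The IMA1 call was lost without wild-type replicate 1 or 2 under arsenite, or any slim1-1 replicate or wild-type replicate 1 or 3 under cadmium. P1R1 was at 0.86 under arsenite and 0.02 under cadmium with a called interaction, a call lost without slim1-1 replicate 1 or 3 or wild-type replicate 3 under cadmium, and also when arrays were shifted to a common median, where the cadmium sign turned.

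**Figure D5:**
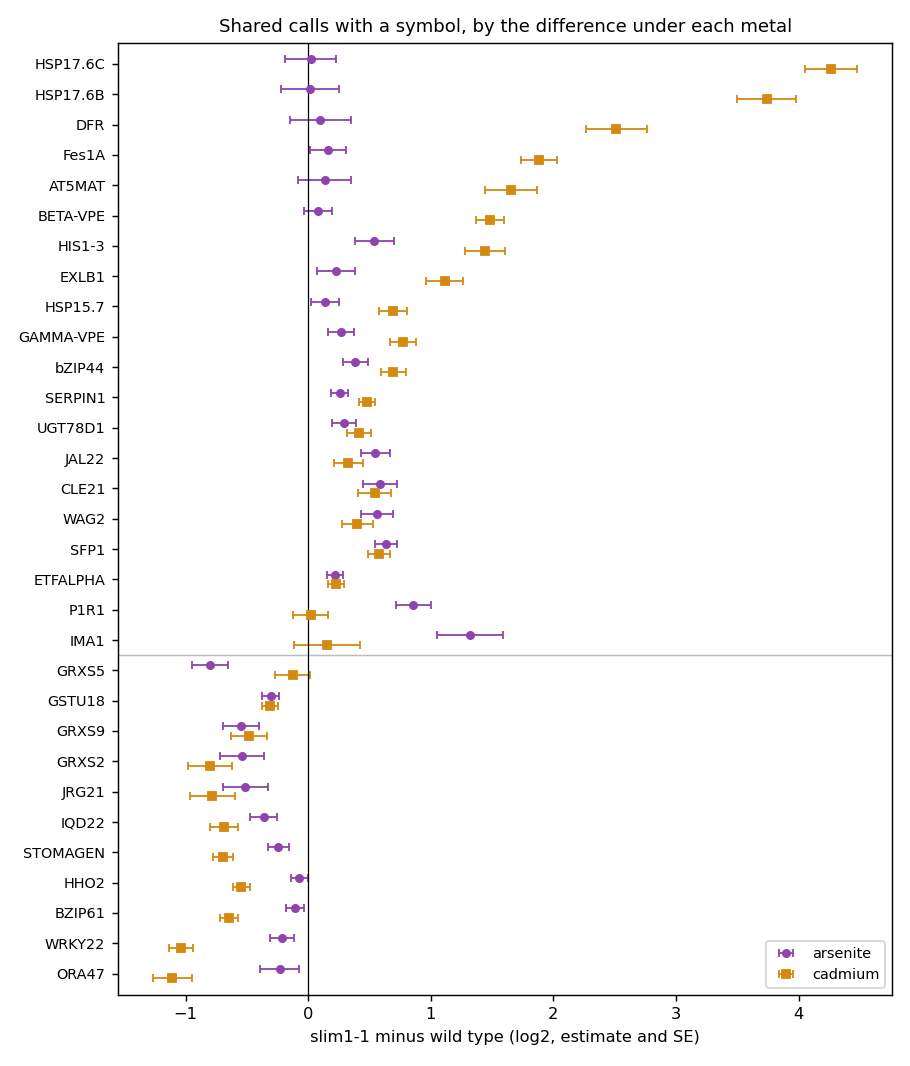
Genotype difference (slim1-1 minus wild type, log2, with its SE) under arsenite (circles) and cadmium (squares) for 31 shared calls with a symbol, 20 higher in slim1-1 above the grey line and 11 lower below it. GSTU18, ETFALPHA, CLE21 and SFP1 have like values under both metals, the heat shock genes, DFR and AT5MAT have their larger value under cadmium, and IMA1 and P1R1 under arsenite.

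Of the 28 lists, 21 had a measured member and 9 a shared call. The 80 measured genes held 8 shared calls higher and 9 lower in slim1-1. Over all genes 4.0% were shared calls higher and 3.20% lower. The lists were chosen with earlier results of these data known, and no test of their calls as a set was made. The jasmonate list (2 of 17 measured) had THI2.1, a thionin, at -0.02 under arsenite and -0.70 under cadmium. The THI2.1 call was lost without wild-type replicate 2 under arsenite, and 3 of its group means lay below the lower quartile. It was also lost after quantile normalization over all arrays or within each metal, with array weights and in the additive model. The nitrate list (1 of 14 measured) had HHO2, a repressor of nitrate uptake genes, at -0.07 under arsenite and -0.54 under cadmium. No shared call was found among the measured members of the xenobiotic and oxidative stress list (7 of 19), auxin response (6 of 14), photosynthesis (6 of 34), abscisic acid and drought (4 of 16), ethylene signalling (2 of 20), senescence (2 of 11), the circadian clock (1 of 21) and salicylate and defence (1 of 16). The median average difference of the 6 photosynthesis genes was -0.02, against -0.0043 over all genes. Neither the root hair markers EXPA7 and EXPA18 (0.22 and 0.24, adjusted p = 0.307 and 0.359) nor the 2 measured of 8 pollen and flower markers passed. No member was measured of the sulfate transport, phosphate starvation, iron storage, sugar starvation, cell cycle, seed storage and root vascular lists.

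Shared calls were found on all 5 nuclear chromosomes, from 5.95% of the tested genes of chromosome 2 to 8.48% of those of chromosome 4. Of 69 measured plastid-encoded genes 1 was a shared call (1.45%, against 7.20% of all genes). Their median average difference was -0.13, with -0.12 under arsenite and -0.12 under cadmium, against -0.0043 over all genes.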

How the data were processed

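The deposited values are log2 levels per probe set, made by the authors with RMA per the submitters' processing notes, with no version named. RMA corrects background, normalizes quantiles and summarises probes, and the arsenite and cadmium arrays do not share 1 distribution. The values carry no detection calls, and the number of arrays limits the precision. Groups were taken from the sample titles, and the series design text states 3 biological replicates.

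Of 22810 probe sets, 64 controls were left out. Of the other 22746, the probe table pairs 13513 with 1 gene and 503 with several, and does not list 8730. Where a gene had several probe sets (146 genes) the brightest was kept, which left 13356 genes, of which 13286 matched the RefSeq table of assembly TAIR10.1. Symbols are those of RefSeq or, where it has none (SDI2, IMA1, HHO2, UGT74C1, UGT75C1, most GRX and HSP names), of the hand-written lists. The sources used here name no build, so no coordinates are given.

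A linear model with 1 mean per group was fitted to all 12 arrays in limma 3.58.1 (R 4.3.3), and all p-values for genes are its two-sided tests. All standard errors of genes are moderated, with the spread of each gene drawn toward a common value estimated over all genes. The contrasts were the genotype difference under each metal, their average and their difference (the interaction), adjusted by the Benjamini-Hochberg method over 13356 genes at a threshold of 0.05. A level under the lower quartile of all probe sets on its arrays was noted as near background. The lists held 440 genes, of which 80 were measured. The members, the 28 lists and the tests were chosen with earlier results of these data known. The naming rule took the genes called under each metal, the 10 largest in each direction with arrays apart under both metals, up to 4 called members of each list, the measured sulfur genes, and shared calls by p that passed under neither metal or fell in a word family. Some of these are left out here, and shared calls with a symbol or of 2-fold or more were added after values were seen. Replicate numbers are shared by the groups, but same-numbered samples did not deviate together and were not taken as pairs. Scripts were tested on simulated data. Alternatives covered scaling, level filter, probe set choice, spread estimate, array weights, block, additive model, single-metal fits and leaving out each array.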

Additional observations from a re-analysis of the deposited data

Results flagged for a closer look

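For 18 of the shared calls named above the genotype difference itself differed between metals, by the interaction in the limma model (adjusted p under 0.05 over all genes). Values are the cadmium difference minus the arsenite difference, each slim1-1 minus wild type, in log2 units. Among genes higher in slim1-1 it was 4.25 for HSP17.6C, 3.72 for HSP17.6B, 2.42 for DFR, 1.72 for Fes1A, 1.52 for AT5MAT, 1.40 for BETA-VPE, 0.90 for HIS1-3 and 0.89 for EXLB1, all larger under cadmium, and -0.84 for P1R1, larger under arsenite. The values of HSP17.6C and DFR are not exact, since both arsenite means of each, and the wild-type cadmium mean of HSP17.6C, were under the lower quartile of their arrays. Among genes lower in slim1-1 a negative value means a larger fall under cadmium. It was -1.32 for AT1G15010, -1.02 for AT1G02660, -0.87 for ORA47, -0.83 for WRKY22, -0.68 for THI2.1, -0.61 for MGL, -0.54 for BZIP34, -0.54 for BZIP61 and -0.47 for HHO2. The means of THI2.1 were under the lower quartile in 3 of the 4 groups. With 3 arrays in each group no array was tested as an outlier.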

How the results depend on the processing

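The main count of 962 shared calls was 1907 over all probe sets, 1828 with array weights and 427 in the additive model, and 9 by the larger of both single-metal p-values. The corresponding count under each metal, 30 genes, was 50 after a shift to a common median, 59 among genes above the median level, 68 over all probe sets, 155 with array weights and 8 with each metal fitted alone. The 116 called interactions among shared calls became 254 over all probe sets and 257 with array weights. Leaving out 1 array gave 569 to 1064 shared calls, 15 to 47 genes called under each metal and 59 to 130 interactions. Shared calls changed by more than 1.5 times without wild-type replicate 1 (611) or 2 (626) under arsenite, slim1-1 replicate 2 (569) or wild-type replicate 1 (601) under cadmium. Interactions did so without slim1-1 replicate 2 (70) or wild-type replicate 1 (76), 2 (62) or 3 (75) under arsenite, and slim1-1 replicate 2 (61) or wild-type replicate 1 (59) or 3 (76) under cadmium. The cause was not tested. The 25S rRNA difference was -0.70 to -0.41, that of GAPDH -0.13 to -0.0855 and that of ubiquitin 0.0560 to 0.0727 without 1 array, on both sides of an exact p of 0.05. Of 82 named shared calls, 68 were kept without any 1 array. In the alternatives compared gene by gene, other than the larger of both p-values, 59 were kept, and none changed the sign of its average. The run over all probe sets was not compared gene by gene. Genes left out by the filter to genes above the median level were not counted as lost. That filter kept 28 of the 30 genes called under each metal. The additive model ended 17 of the 82 named calls (adjusted p up to 0.128), namely Fes1A, SIR, HHO2, GRX480, HSP15.7, BETA-VPE, HSP17.6C, GRXS3, AT4G33720, HSP17.6B, DFR, AT5MAT, GRXS5, THI2.1, MGL, IMA1 and P1R1. Same-numbered samples of the genotypes correlated in their deviations with r of -0.33 to 0.095 and were not taken as pairs. Differently numbered samples ranged from -0.139 to 0.336 under arsenite, highest for slim1-1 replicate 1 with wild-type replicate 3. Under cadmium they ranged from -0.067 to 0.060. The main model fits no such structure. With the replicate block, 549 genes were shared calls, 521 of them among the 962, with 21 called under each metal and 60 interactions, and the 30 genes called under each metal all stayed shared calls of the average while 17 of them stayed called under each metal. The block left 3 of the 5 glutaredoxin calls and ended 7 named calls, those of GRX480, MSRB9, scpl35, MYC4, ETFALPHA, AT4G12500 and GRXS3 (adjusted p 0.0520 to 0.0695). Probe sets near background limit what the arrays show at low levels.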
